A study of Mus musculus with 4 samples.

Results

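Esrrb, Prdm14, Zfp42, Pou5f1, Nanog, Sox2 and Tbx3 are regulators or markers of pluripotency, and their surroundings were examined for binding of a motor neuron transcription factor complex. Of these 7 genes, 5 were the nearest protein-coding gene of at least 1 Flag-Isl1-Lhx3 ChIP-seq peak, and Pou5f1 and Nanog were the nearest gene of none. The 5 genes held 15 of the 2454 nuclear peaks of the deposited list, in 14 of its 2301 regions. Sox2 and Esrrb held 5 peaks each, Prdm14 and Tbx3 held 2 each, and Zfp42 held 1. The 7 genes were chosen from the pluripotency network with the presence of peaks near several of them already known, so the number that hold a peak is a description. Of all protein-coding genes that could receive a peak, 8.18% held at least 1. Each peak was assigned to the gene whose transcription start lay nearest to its maximum, among protein-coding genes only.

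The peaks came from mouse iMN-ESCs, embryonic stem (ES) cells of the A172LoxP line that carry a doxycycline-inducible (Dox-inducible) gene for a Flag-tagged Isl1-Lhx3 fusion. There were 2 libraries with Dox at 2 µg/mL and 2 without Dox, in 2 numbered sets, and all 4 were made with an antibody to Flag. All cells, with or without Dox, carried the transgene, formed embryoid bodies, received retinoic acid at 0.5 µM for 2 days before the 4 days with or without Dox, kept retinoic acid during those days, and received LIF for the last 16 hours. The stable transfectants were selected with neomycin, and the labels do not say whether 1 clone was used or whether the sets were separate cultures.

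Isl1 and Lhx3 are LIM-homeodomain factors that together specify spinal motor neurons, and they bind DNA at AT-rich homeodomain sites. Pluripotency rests on a network of transcription factors that activate one another: Pou5f1 (Oct4), Sox2 and Nanog form its core, while Esrrb, Prdm14 and Tbx3 support the self-renewing state and Zfp42 (Rex1) is a marker of undifferentiated ES cells. LIF sustains this network in mouse ES cells through STAT3, and retinoic acid drives cells out of it. Sox2 is also a factor of neural progenitors, and Tbx3 is also a developmental regulator of limb, heart and other organs.

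The list gives 1 ChIP score, 1 background score and 1 tag count per entry, and nothing per library. The libraries with Dox could therefore not be set against those without Dox at any of these genes, no spread between sets could be measured, and no test was made. The scores are the authors' values with no stated scale, and the samples behind the background score are not stated. A weaker peak may reflect binding in fewer cells or weaker binding in each cell, and these cannot be told apart. The list holds no expression values, so whether the cells still expressed pluripotency genes, or had become motor neurons, could not be checked from it.

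The sequences around the maxima are shown first, because the homeodomain cores in them can be read directly. Each is the 200 bp window centred on a maximum, on the plus strand of mm9, with every ATTA core or its reverse complement TAAT in capitals. They are the strongest peak of each of the 5 genes and the 2 further peaks that hold the hexamer TAATTA, a palindromic site of LIM-homeodomain factors in which these cores overlap.

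Prdm14, 52.2 kb downstream of the start, chr1:13064957-13065156: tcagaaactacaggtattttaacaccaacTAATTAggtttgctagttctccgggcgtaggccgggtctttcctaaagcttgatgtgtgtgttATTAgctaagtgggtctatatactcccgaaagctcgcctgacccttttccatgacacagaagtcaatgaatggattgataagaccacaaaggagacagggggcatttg

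Sox2, 17.9 kb downstream of the start, chr3:34566896-34567095: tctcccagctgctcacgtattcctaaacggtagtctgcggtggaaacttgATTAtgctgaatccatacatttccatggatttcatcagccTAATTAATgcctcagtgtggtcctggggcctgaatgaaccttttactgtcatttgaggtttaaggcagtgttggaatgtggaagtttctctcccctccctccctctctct

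Tbx3, 25.8 kb downstream of the nearest start, chr5:120156460-120156659: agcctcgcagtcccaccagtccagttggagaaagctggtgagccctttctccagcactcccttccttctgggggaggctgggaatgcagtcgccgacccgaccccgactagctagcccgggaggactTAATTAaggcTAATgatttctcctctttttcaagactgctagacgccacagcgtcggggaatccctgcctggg

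Esrrb, intron 3, chr12:87831204-87831403: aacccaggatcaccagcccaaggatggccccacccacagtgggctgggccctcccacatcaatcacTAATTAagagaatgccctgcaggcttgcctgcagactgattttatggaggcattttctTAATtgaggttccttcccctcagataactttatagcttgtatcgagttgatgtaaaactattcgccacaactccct

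Esrrb, intron 1, chr12:87739853-87740052: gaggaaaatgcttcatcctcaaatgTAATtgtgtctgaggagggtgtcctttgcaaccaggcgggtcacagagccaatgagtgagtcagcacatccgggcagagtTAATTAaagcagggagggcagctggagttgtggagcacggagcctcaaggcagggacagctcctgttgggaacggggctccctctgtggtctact

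Sox2, 3.66 kb upstream of the start, chr3:34545167-34545366: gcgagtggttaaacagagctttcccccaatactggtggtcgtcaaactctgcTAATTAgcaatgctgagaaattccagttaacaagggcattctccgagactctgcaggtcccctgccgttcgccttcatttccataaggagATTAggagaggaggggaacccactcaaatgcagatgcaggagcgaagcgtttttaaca

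Zfp42, 13.8 kb upstream of the start, chr8:44406019-44406218: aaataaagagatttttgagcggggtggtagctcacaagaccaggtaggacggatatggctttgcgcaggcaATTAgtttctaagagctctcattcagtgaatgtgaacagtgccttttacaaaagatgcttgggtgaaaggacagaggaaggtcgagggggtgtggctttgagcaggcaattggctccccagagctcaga

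Of all 22333 protein-coding genes that could receive a peak, 1826 (8.18%) had at least 1, 417 (1.87%) had at least 2, and 19 (0.0851%) had at least 5. Among the 7 genes, 5 had at least 1, 4 had at least 2 and 2 had at least 5. Since the genes were selected on their peaks, these counts stand beside the background shares without a test. A gene far from its neighbours collects peaks over more sequence, so the number of bases nearest to its starts, its territory, is given with each count. Over the whole list there were 0.924 peaks per Mb of territory.

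**Figure D1:**
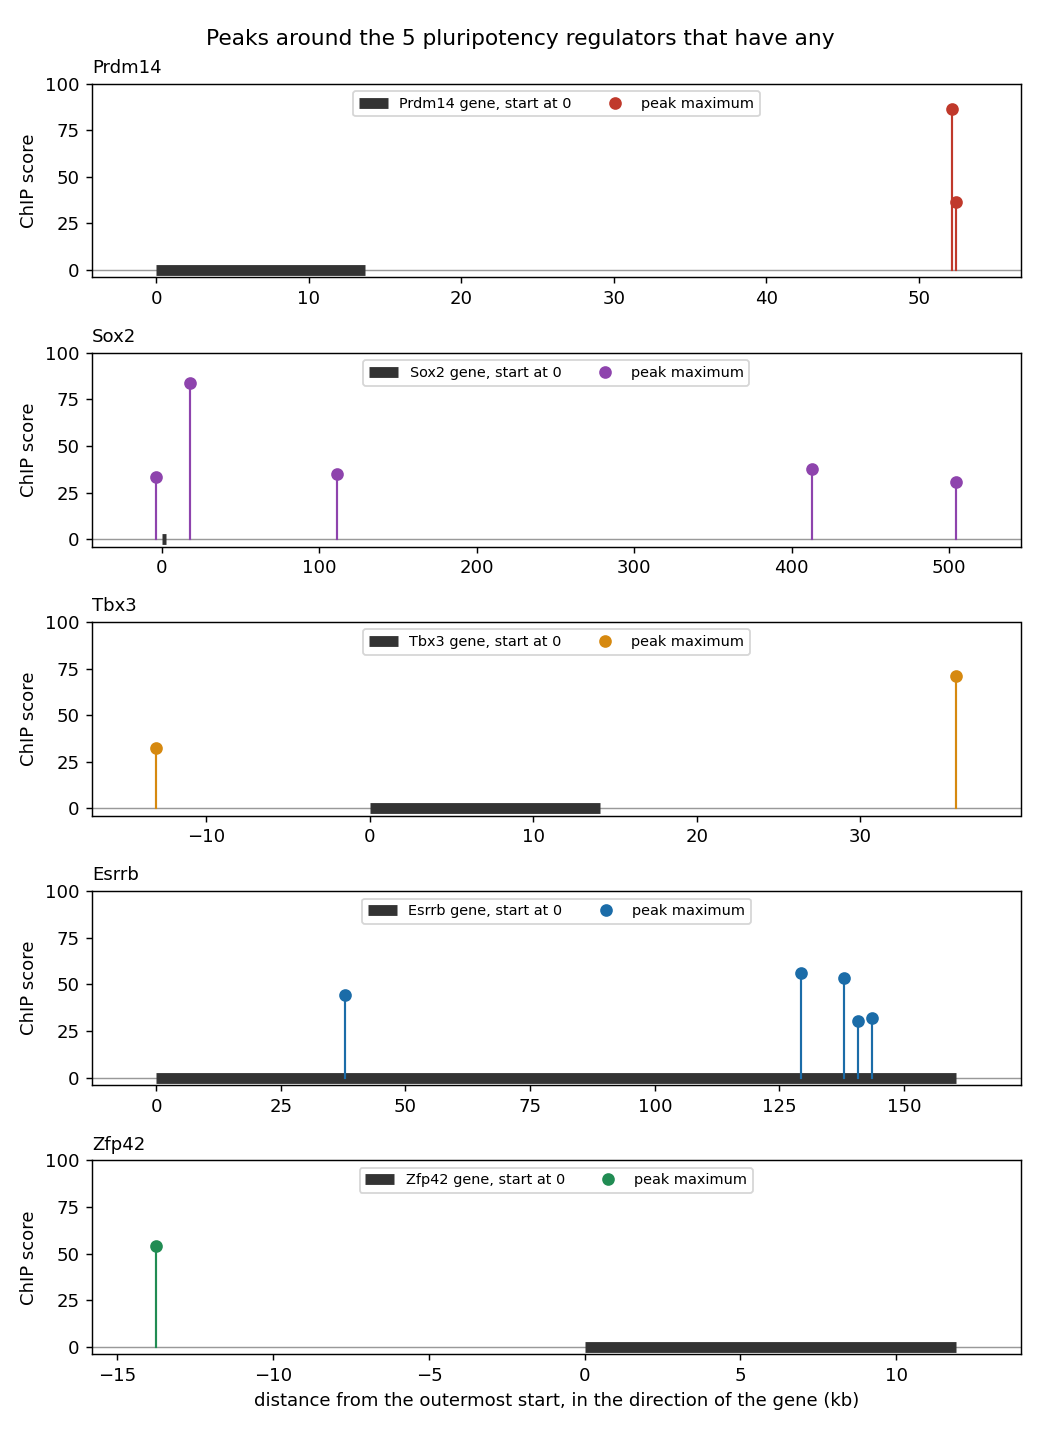
ChIP score of each peak (vertical axis) against the distance of its maximum from the outermost start of the gene, in kb along the direction of the gene (horizontal axis), for the 5 genes with peaks. Dark bars are the gene bodies. All 5 Esrrb peaks lie inside the gene, whereas every peak of Prdm14, Sox2, Tbx3 and Zfp42 lies outside it.

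Esrrb (ENSMUSG00000021255.10, chromosome 12, 87702067 to 87862578, plus strand) encodes an orphan nuclear receptor that binds DNA and sustains self-renewal. All 5 of its peaks were intronic, in 5 separate regions of a gene 161 kb long. The strongest (chr12:87831054-87831553) scored 56.21 in the ChIP, rank 538 in the list, with 0.00 as background score and 41 tags (95% Poisson interval 29.4 to 55.6). The next (chr12:87839774-87840273) scored 53.53 with 37 tags (26.1 to 51) and also had a background score of 0.00. These and the 2 weakest, with scores of 31.85 and 30.51 and 23 tags each (14.6 to 34.5), formed a group of 4 maxima within 14.3 kb of intron 3, in the transcript with the longest coding part, separated by gaps of 8.72, 2.86 and 2.69 kb. The fifth (chr12:87739703-87740202) lay alone 91.4 kb to the left, in intron 1 of the transcript that starts outermost, scoring 44.16 with 2.64 as background and 53 tags (39.7 to 69.3).

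The group of 4 lay around an internal Esrrb start, at 14.1, 5.34 and 2.47 kb upstream and 0.213 kb downstream of it. That start belongs to a transcript annotated as noncoding, and the nearest start of a protein-coding Esrrb transcript was 20.2 to 34.5 kb upstream of these 4 maxima. From the outermost start of the gene they were 129 to 144 kb away. Esrrb remained the nearest gene by either kind of start. Its territory of 290 kb was larger than that of 90.9% of protein-coding genes and held 17.2 peaks per Mb. The first peak beyond it lay 231 kb from an Esrrb start and was assigned to 1700019E19Rik, with a score of 54.60. Vash1, an angiogenesis inhibitor gene, had the next start to the right, at 174 kb.

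Prdm14 (ENSMUSG00000042414.7, chromosome 1, 13103538 to 13117244, minus strand) encodes a PR-domain zinc-finger protein that keeps ES cells from entering differentiation. It held the strongest maximum of the 7 genes (chr1:13064807-13065306), scoring 86.18, rank 186, with 0.00 as background and 131 tags in its region (110 to 155). The second maximum was in the same region, 272 bp away, and scored 36.67. Both were intergenic, 52.2 and 52.5 kb downstream of the only annotated Prdm14 start. The stronger was 38.5 kb past the end of the gene. In a territory of 78.7 kb the 2 maxima made 25.4 peaks per Mb, the highest value of the 5 genes with peaks. As they share 1 region, there were 12.7 regions per Mb, below the 17.2 of Esrrb. The nearest peak outside lay 1294 kb away and was assigned to Eya1.

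Sox2 (ENSMUSG00000074637.3, chromosome 3, 34548927 to 34551383, plus strand) encodes an HMG-box factor of pluripotent cells and neural progenitors. Its 5 peaks spread over 508 kb. The strongest (chr3:34566746-34567245) lay 17.9 kb downstream of the nearest Sox2 start and scored 84.04, rank 196, with 0.98 as background and 43 tags (31.1 to 57.9). The other 4 scored between 30.78 and 37.47, all below the median of the list. One of them lay 3.66 kb upstream of the start (chr3:34545017-34545516, score 33.19, 45 tags, 32.8 to 60.2). Another lay 111 kb downstream (chr3:34659844-34660343, score 34.79, 30 tags, 20.2 to 42.8), and the last 2 lay 413 and 504 kb downstream with 19 and 20 tags.

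The Sox2 locus is known for enhancers on both sides of the gene, among them a distal cluster downstream that is active in ES cells. Whether any of these peaks falls in a known enhancer was not analysed here. The peaks at 3.66 kb upstream and 17.9 kb downstream lay in introns of Sox2ot, a long noncoding RNA gene that overlaps Sox2, and the other 3 were intergenic. By starts of all annotated genes Sox2ot was nearer to 4 of the 5, and Sox2 kept the one 3.66 kb upstream. The territory of Sox2, 836 kb, exceeded that of 98.1% of protein-coding genes, because the next protein-coding starts were those of Dnajc19 at 569 kb and Atp11b at 1104 kb. It held 5.98 peaks per Mb.

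Tbx3 (ENSMUSG00000018604.11, chromosome 5, 120120678 to 120134733, plus strand) encodes a T-box factor. The stronger of its 2 peaks (chr5:120156310-120156809) was intergenic, 25.8 kb downstream of the nearest start and 21.8 kb past the end of the gene. It scored 70.93, rank 295, with 2.76 as background and 52 tags (38.8 to 68.2). The weaker (chr5:120107353-120107852) lay 13.1 kb upstream, in introns of the noncoding genes Gm16064 and Gm2301, scoring 32.39 with 0.00 as background and 24 tags (15.4 to 35.7). Noncoding genes, Gm16065 and Gm16064, had the nearest start of any kind at both. In a territory of 642 kb there were 3.12 peaks per Mb, the lowest value of the 5 genes with peaks. The next peaks belonged to Lhx5, itself a LIM-homeodomain gene, of which the nearest scored 83.51 and lay 624 kb from a Tbx3 start.

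Zfp42 (ENSMUSG00000051176.5, chromosome 8, 44380422 to 44392363, minus strand) encodes the zinc-finger protein Rex1. Its single peak (chr8:44405869-44406368) was intergenic, 13.8 kb upstream of the only annotated start. It scored 54.07, rank 608, with 1.75 as background and 51 tags (38 to 67.1). Zfp42 was also the nearest gene of any kind. There were 6.09 peaks per Mb in its territory of 164 kb. The next peak was 102 kb away and was assigned to Gm2221, with a score of 38.81.

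Pou5f1 and Nanog had no peak, and each had a smaller territory than the 5 genes with peaks. Pou5f1 (ENSMUSG00000024406.9, chromosome 17, 35642982 to 35647721) has a territory of 24.9 kb, and the nearest peak lay 555 kb from its starts, assigned to the heat shock gene Hspa1b, with a score of 41.22. Nanog (ENSMUSG00000012396.5, chromosome 6, 122657507 to 122664651) has a territory of 53.3 kb. The nearest peak to it (chr6:122719024-122719523, score 40.42) lay 61.7 kb from a Nanog start, but 10.7 kb from a start of Slc2a3, a glucose transporter gene. At the density of the whole list, these territories correspond to 0.023 peaks for Pou5f1 and 0.0492 for Nanog, against 0.0727 for Prdm14 and 0.773 for Sox2. Why Pou5f1 and Nanog had no listed peak was not tested. Whether a peak is listed at all depends on the caller's threshold, which is not given in the sources used here.

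**Figure D2:**
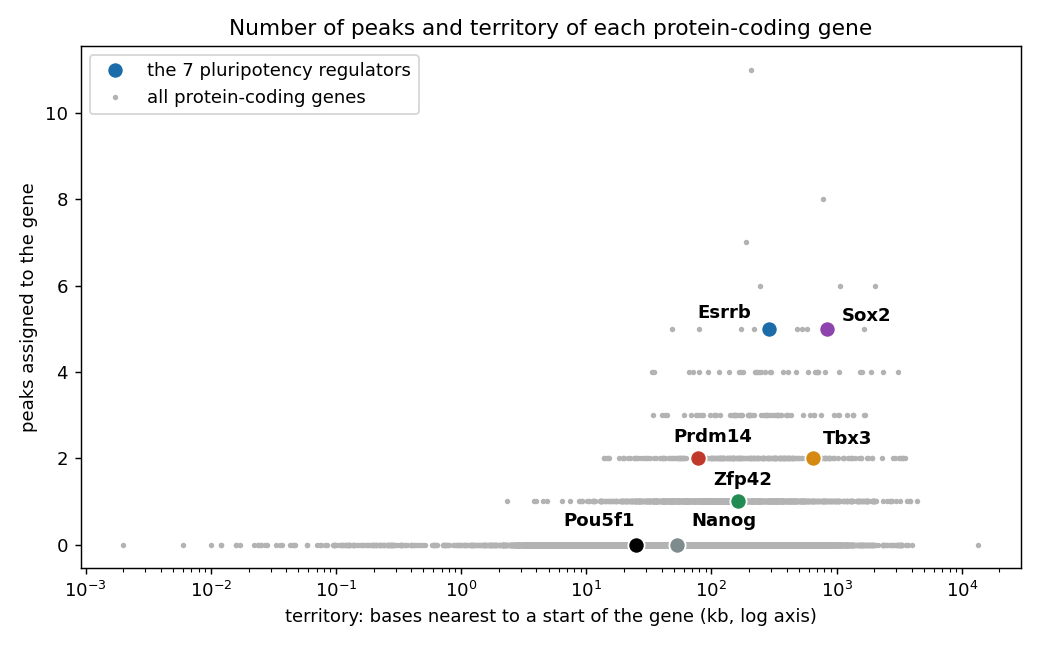
Number of peaks assigned to each protein-coding gene (vertical axis) against its territory in kb (horizontal log axis), with the 7 pluripotency regulators in colour and all protein-coding genes in grey. Esrrb and Sox2 share the count of 5 at territories of 290 and 836 kb, and Pou5f1 (24.9 kb) and Nanog (53.3 kb) sit at 0.

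In strength the 15 peaks spanned much of the list. Their median ChIP score was 37.47, against 40.95 over all nuclear peaks, and 7 of the 15 (46.7%) were above this list median. There were 5 in the top 25% of the list by rank and 5 below its lower quartile of 34.26. The list ran from 29.98 to 321.18, and the weakest of the 15, at Esrrb, scored 30.51, close to the lowest listed value. Peaks just above and just below the strongest Prdm14 peak in score belonged to Msrb2 (86.45) and Cadps2 (85.92). The strongest Esrrb peak had the same score as peaks of Fryl and Mitf (56.21).

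**Figure D3:**
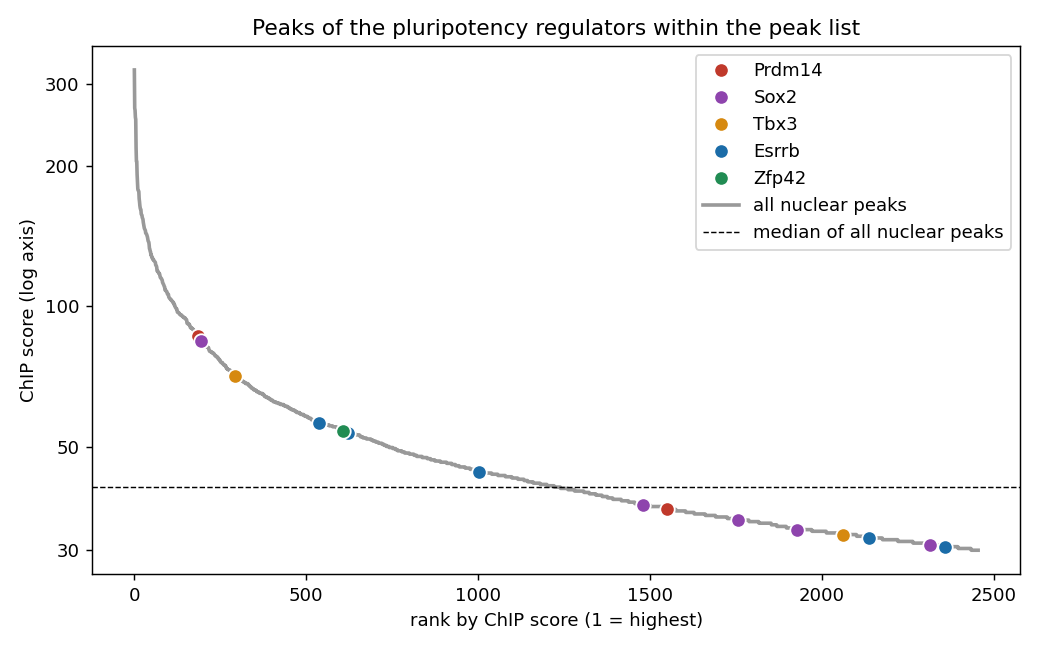
ChIP score (vertical log axis) against rank by ChIP score (horizontal axis) for all 2454 nuclear peaks, as a grey line, with the 15 peaks of the pluripotency regulators as coloured points. The dashed line is the list median of 40.95, and the strongest peaks of Prdm14, Sox2 and Tbx3 hold ranks 186, 196 and 295.

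Background scores were low beside the ChIP scores. The median background score was 1.17% of the ChIP score at the 15 peaks, against 0.722% over the list, and it was 0 at 5 of the 15, against 762 of 2454 (31.1%). The highest share was 7.96%, at the weakest Esrrb peak, and 9.78% of all nuclear peaks had a share at least as high. The 14 regions held between 19 and 131 tags, with a median of 39, against a median of 30 tags over all 2301 regions.

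Most of the peaks were distal. Of the 15, 4 were within 10 kb of a protein-coding gene's start, 8 between 10 and 100 kb, and 3 beyond 100 kb, all 3 at Sox2. In the list these classes held 33%, 48.5% and 18.5% of peaks. The median distance was 17.9 kb, against 22.2 kb over the list. These values count the internal noncoding start of Esrrb. From starts of protein-coding transcripts alone, 1 of the 15 peaks (3.66 kb upstream of Sox2) was within 10 kb, against 29.4% of the list, and the median distance was 29 kb, against 26.3 kb over the list. By place, 8 maxima were in introns, 7 were intergenic and 0 were in exons.

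The sequence at the maxima was rich in homeodomain cores at these genes and throughout the list. The core ATTA, searched on both strands, was in all 15 windows of 200 bp (95% Clopper-Pearson interval 78.2 to 100%), against 94.2% of all nuclear peaks and 66.8% of 200 bp flanks taken 1000 bp to each side of every peak. It was in 21 of the 30 flanks of the 15 peaks. The windows held 1 to 5 cores with a median of 3, the same median as in the list, and a mean of 2.4, against 2.85. The nearest core lay a median of 26.5 bp from the maximum, against 15.5 bp over the list. A core lay within 6 bp of the maximum at 3 of the 15 (20%), against 21.6% of the list. The hexamer TAATTA was in 6 of 15 (40%, 16.3 to 67.7%), against 34.2% of all nuclear peaks and 6.48% of their flanks. It was in 1 of the 30 flanks of the 15 peaks. The interval includes the share of the list, which itself counts these 15 peaks. Whether the shares differ was not tested, and 15 peaks of chosen genes cannot settle it. The intervals cover counting error only and treat neighbouring peaks as independent.

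The 6 windows with the hexamer belonged to Prdm14, Sox2 (2 windows), Tbx3 and Esrrb (2 windows), and they are the first 6 sequences printed above. They included the 4 strongest of the 15 peaks, a feature singled out after its values were seen. The median score was 63.57 with the hexamer and 34.79 without, and the ranges overlapped, from 33.19 upward with it and up to 54.07 without. In the list as a whole these medians were 42.29 and 40.15. At the strongest Sox2 peak the hexamer was centred 6.5 bp left of the maximum and ran on into a further TAAT core. At Esrrb it lay 8.5 bp right of the maximum in intron 1 and 30.5 bp left of it at the strongest peak. At Tbx3 it lay 30.5 bp to the right, and at Prdm14 67.5 bp to the left, where another ATTA lay 5.5 bp from the maximum. The peak 3.66 kb upstream of Sox2 held 1 hexamer in 200 bp but 4 in 500 bp, likewise singled out afterwards. That number was reached by 19 of all peaks (0.774%).

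**Figure D4:**
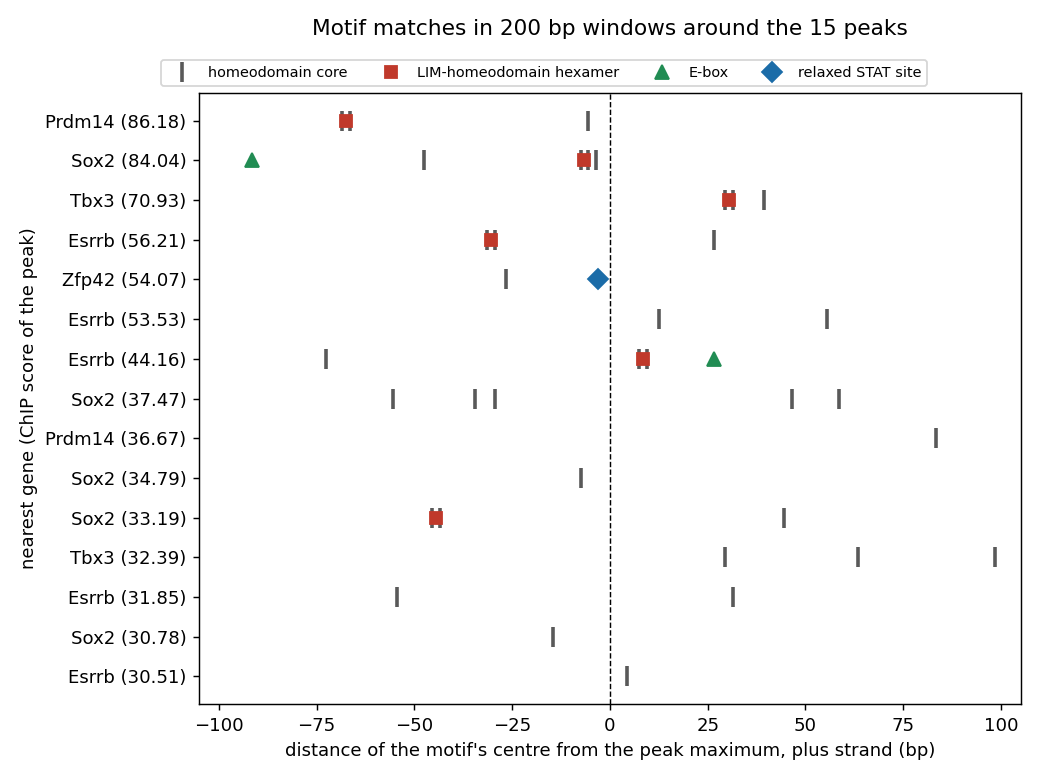
Positions of motif matches in the 200 bp windows of the 15 peaks (1 row per peak, strongest at the top, named by gene and ChIP score), as the distance in bp of the motif's centre from the maximum on the plus strand. All 15 rows hold a homeodomain core, 6 hold the LIM-homeodomain hexamer, 2 an E-box and 1, at Zfp42, a relaxed STAT site 3 bp from the maximum.

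STAT sites were counted because the series title names STAT3 and the cells received LIF. The relaxed site TTCNNNGAA was in 1 of the 15 windows (6.67%, 0.169 to 31.9%), against 4.97% of all nuclear peaks and 5.87% of flanks. That window was the Zfp42 one, where the match TTCAGTGAA was centred 3 bp left of the maximum and the only homeodomain core 26.5 bp left of it. The 500 bp around the same maximum held 2 relaxed STAT sites and 2 hexamers. At least 2 relaxed STAT sites were in the 500 bp windows of 34 of all peaks (1.39%), a feature singled out after its values were seen. In 500 bp, 13.3% of the 15 peaks held at least 1 relaxed STAT site, against 13.7% of all peaks. The strict site TTCCNGGAA was in 0 of 15, which allows up to 21.8%, against 0.733% of all peaks.

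Of sites of the pluripotency factors themselves, the few exact sequences searched for were not found in these windows. Other spellings of these sites, and sites of Nanog, Prdm14, Tbx3 and Zfp42, were not searched for. The octamer ATGCAAAT, bound by POU factors such as Oct4, the SOX site ATTGTT, the Esrrb-type site TCAAGGTCA and its shorter form AAGGTCA were each in 0 of 15, and each 0 allows up to 21.8%. In all nuclear peaks the shares were 4.24% for the octamer, 14.3% for the SOX site, 1.34% for the longer nuclear receptor site and 7.5% for the short form, which the longer one contains. The E-box CAGCTG was in 2 of 15 (13.3%, 1.66 to 40.5%), at Sox2 and Esrrb, against 13.9% of all peaks. A pair of ATTA then TAAT with 3 bases between, and TAAT repeated with 5 between, were in 0 of 15, against 4.97% and 6.03%. The GC content of the windows had a median of 51%, ranging from 44.5 to 58.5%, against 48% over the list.

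With no value per library, the genes most like Esrrb and Sox2 were taken as those with at least 5 peaks. There were 19 in all, Esrrb and Sox2 included. The first by number were Spry2 (11 peaks in 10 regions), Wwox (8 in 5) and Sall1 (7 in 4). They were followed by Sgk1 (6 in 4), Stim2 (6 in 2) and Tle4 (6 in 6), which tied. Spry2 encodes an inhibitor of receptor tyrosine kinase signalling and Sall1 a developmental zinc-finger factor. Peaks per Mb of territory were 53.4 at Spry2, 36.7 at Sall1, 24.4 at Sgk1, 17.2 at Esrrb, 10.2 at Wwox, 5.98 at Sox2, 5.62 at Tle4 and 2.98 at Stim2. Among the other genes of the 19 they ran from 3.02 to 104, some above and some below the value of Esrrb.

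Among 29 other genes listed for the pluripotency network, 12 (41.4%) were the nearest protein-coding gene of at least 1 peak. The share of all protein-coding genes was 8.18%. The 12 held 19 peaks in all, with a median score of 40.68. Their territories ran from 11.5 kb (Dppa5a) to 696 kb (Klf4), against a median of 45.6 kb over protein-coding genes. Those of the 17 genes without a peak ran from 12 kb (Gdf3) to 472 kb (Tet2). The list of 29 was likewise drawn up with results of these data known. Its highest scores were at Tcf7l1, Zfp281, Klf5 and Tet1. Tcf7l1, a Wnt pathway repressor that restrains the pluripotency network, held a peak of 70.12 in an intron, 0.804 kb from a start. Zfp281, a zinc-finger factor, had one of 64.50 at 65.4 kb, where Gm16880 had the nearest start of any kind. Tet1, which oxidises methylated cytosine, held an intronic peak of 59.69 at 2.12 kb.

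The Krüppel-like factor Klf5 had 5 peaks in 4 regions, the strongest scoring 63.43 at 212 kb from its start. Klf2 had 1 (35.33) and Klf4 had 2, the stronger scoring 33.19 at 397 kb. By starts of all annotated genes, the strongest Klf5 peak was nearest to U1 and the stronger Klf4 peak to Gm12519. The Polycomb-associated Jarid2 (42.56, 3 peaks), the nuclear receptor gene Nr5a2 (40.95), Sall4 (40.68), Dppa2 (40.15), Gbx2 (33.72, 0.703 kb upstream of its start) and Dppa5a (30.24) completed the set. The 17 without a peak were Tfcp2l1, Nr0b1, Dppa3, Dppa4, Utf1, Fgf4, Lin28a, Tdgf1, Tcl1, Mycn, Tet2, Dnmt3l, Lefty1, Lefty2, Gdf3, Tcf3 and Rif1. Tcf3 here is the gene annotated under that symbol (ENSMUSG00000020167.8) and is included in the counts. It is not Tcf7l1 (ENSMUSG00000055799.6), which has also been called Tcf3 in work on ES cells and held a peak. Only Tcf7l1 in this set scored close to the strongest Tbx3 peak (70.93), and none reached those of Prdm14 and Sox2.

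**Figure D5:**
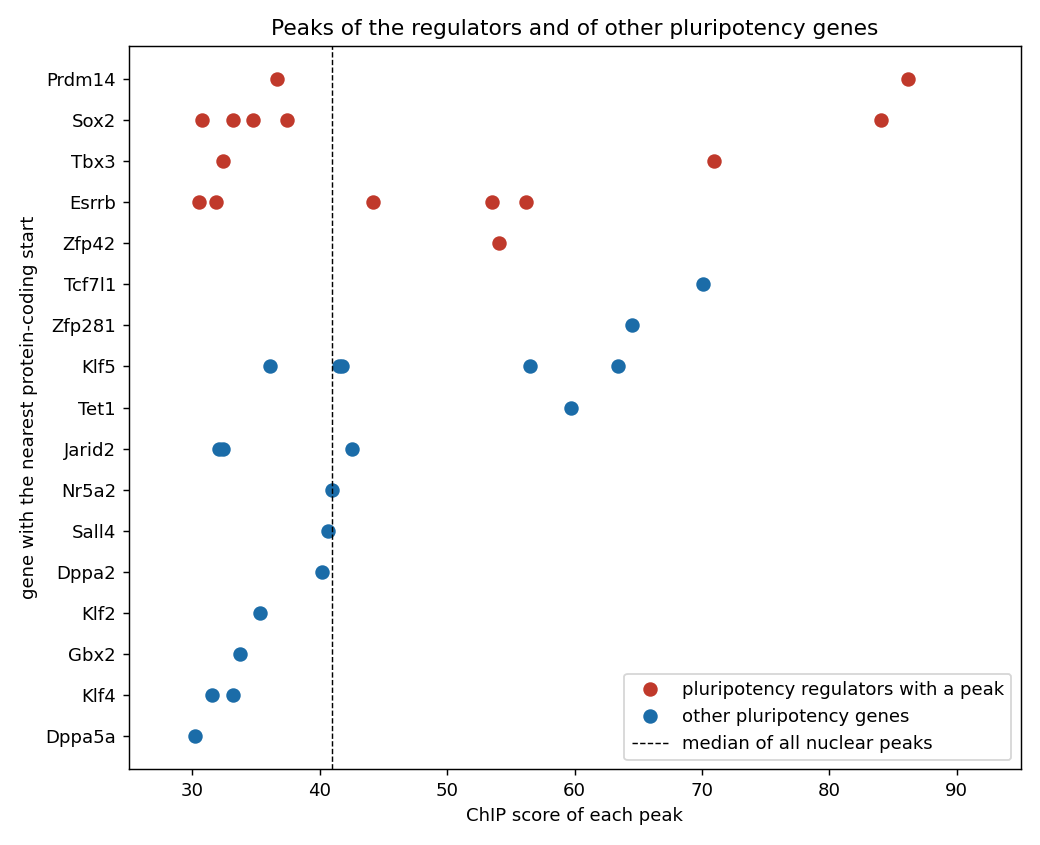
ChIP score of every peak (horizontal axis) by the gene with the nearest protein-coding start (vertical axis), for the 5 pluripotency regulators with peaks in red and the 12 other pluripotency genes with peaks in blue. The dashed line is the median of all nuclear peaks, 40.95. The highest score in red is 86.18 (Prdm14) and the highest in blue is 70.12 (Tcf7l1).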

How the data were processed

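Flag ChIP-seq libraries were aligned with BWA 0.5.8a, with mm9 as the genome build, per the submitters' processing notes. Which peak caller and threshold were used, and whether sets were pooled, is not stated. A single peak list (1 file) was deposited by the authors, with 500 bp windows. Its ChIP and background scores are deposited score values without a stated scale. Its ChIP tags are deposited whole-number counts per region, shared by all maxima of a region. The depth of each library is unknown.

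A mitochondrial peak was left out (1 peak). Coordinates are 1-based on mm9 (NCBIM37), the build of the genome and of the GENCODE M1 annotation used. Maxima were assigned to the nearest start of any transcript of a protein-coding gene. Of the 36 genes looked up, Tfcp2l1 matched by an older symbol and all others by symbol. Sequences were read from the mm9 genome. Motifs were matched on both strands in 200 bp.

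The genes, lists and motifs were chosen with earlier results of these data known. All values are descriptions of 1 list, without tests. Named were the 7 genes, hosts and neighbours of their peaks, the nearest outside peaks, the 5 genes with most peaks (ties ordered by strongest score, with Tle4 added because it tied at the limit) and all genes of the second list, except 1 that is not reported here and enters no count of that list. Fixed alternatives were all annotated starts, outermost starts, limits of 100 and 10 kb, 1 peak per region, the top 50% of scores, windows of 100 and 500 bp, the strict STAT site and 1 added to scores. Starts of protein-coding transcripts alone, 1 peak per region for counts of genes, and outermost starts for the median score were added after seeing the data. Assignment and motif matching were tested on simulated data. Python 3.11.15, pandas 2.3.3, SciPy 1.17.1 and pysam 0.24.0 were used.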

Additional observations from a re-analysis of the deposited data

How the results depend on the processing

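The number of peaks assigned to the 7 genes was 15 with protein-coding starts. It became 9 with the starts of all annotated genes, where noncoding genes took 4 Sox2 peaks and both Tbx3 peaks. It became 4 within 10 kb and 7 in the higher-scoring 50%. The number of genes with a peak, 5, was 2 within 10 kb (Esrrb and Sox2) and 4 or 5 under all other settings tried. Esrrb counts within 10 kb only through its internal noncoding start. From starts of protein-coding transcripts its nearest peak was 20.2 kb away. The 12 other pluripotency genes with a peak became 6 in the top 50% of scores and 8 to 13 otherwise. The share of all protein-coding genes with a peak, 8.18%, holds for the main setting. No such share is given for the other settings, so these counts have no background beside them. The median score of 37.47 became 44.16 with all annotated starts and 40.81 with 1 peak per region, and was unchanged with outermost starts or starts of protein-coding transcripts. The median background share of 1.17% became 3.04% with 1 added to each score. The list values of 40.95 and 0.722% are not counterparts of 40.81 and 3.04%. No list value is given for 1 peak per region or for 1 added to each score. Peaks per Mb of the 7 territories together were 7.18, 6.7 with 1 peak per region and 20.4 with all annotated starts, where the territories are smaller. The share with TAATTA, 40%, was 33.3% in 100 bp, 53.3% in 500 bp (41.6% of all peaks) and 42.9% with 1 peak per region. The 500 bp windows of the 2 Prdm14 maxima overlap. The share with a relaxed STAT site, 6.67%, was 6.67% in 100 bp and 13.3% in 500 bp (13.7% of all peaks), and 0% for the strict site. No paired analysis was possible because the list gives no value per library, so no set could be left out either.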

Other observations

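The strongest Prdm14 and Sox2 peaks had nearly the same ChIP score but unlike tag counts in their regions. The Prdm14 region had 131 tags over 1492 bp, rank 36 of 2301 regions by tags, and a highest score of 86.18. Its tags are shared with a second maximum that scored 36.67, whereas the Sox2 region held no second maximum. The Sox2 region had 43 tags over 324 bp, rank 596, and a score of 84.04. Per kb of region these were 87.8 tags at Prdm14 and 133 at Sox2. Among the 56 regions with a strongest score from 80 to 90, the lowest tag count was 38, the median 66 and the highest 131, with widths from 279 to 1524 bp. The Prdm14 region had the most tags of these 56, and 3 of them had 43 tags or fewer, the Sox2 region included. How the score was computed from tags is not given in the sources used here, and what sets the 2 measures apart was not tested.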
